A study of Mus musculus with 13 samples.

Results

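The interferon-induced GTPases described here are 8 genes of the immune defence inside cells. Iigp1, Igtp, Irgm1 and Irgm2 encode immunity-related GTPases (IRGs), and Gbp2, Gbp3, Gbp6 and Gbp7 encode guanylate-binding proteins (GBPs). Both families bind guanine nucleotides and gather on membranes, in mice above all on the vacuoles that enclose parasites and bacteria. IRGs of the effector kind, such as Iigp1 (Irga6), load onto and break open the vacuole, and regulatory IRGs (Irgm1, Irgm2 and Igtp, also called Irgm3) stay on the cell's own membranes and hold the effectors inactive there. Transcription of both families is switched on by interferon gamma, and for many members by type I interferons too, in part through factors of the Irf family. They were chosen by symbol: every probe set that the platform annotation assigns to 1 of these 8 genes was taken. That gave 8 of the 18193 genes that a probe set names alone, with 12 of 45037 probe sets, 2 each for Iigp1, Gbp2, Gbp6 and Gbp7 and 1 each for the other 4 genes.

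The study profiled CD8+ T cells of P14 mice, which carry a transgenic T cell receptor on the C57Bl/6 background, on 13 oligonucleotide arrays. The groups were day 3 in vitro effector cells of BATF-/- P14 mice (4 arrays) and of wild-type P14 mice (4 arrays), which had been kept for 3 days on plate-bound antibodies to CD3 and CD28 with 100 U/ml recombinant human IL-2, and day 0 naive cells of BATF-/- P14 mice (3 arrays) and of wild-type P14 mice (2 arrays). BATF, an AP-1 protein without a transactivation domain of its own, binds DNA together with Jun proteins and, at composite sites, with Irf4 or Irf8. All groups share the P14 receptor and isolation by magnetic negative selection, which leaves the wanted cells untouched and can carry over other cells. The labels do not give the age of the mice, and do not state whether arrays of a group came from separate animals or cultures, so that p-values measure the spread between arrays.

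Levels are log2 of the deposited intensities. Batf itself was lower in every BATF-/- array, with a log2 difference of -2.88 ± 0.22 at day 3 (SE, limma, adjusted p = 4.02e-05) and -3.41 ± 0.29 in naive cells (limma, adjusted p = 0.000145). All 7 measured markers of CD8+ T cells lay above the background in each of the 4 groups, where near the background means below 4.35, the level under which the lowest 40% of probe sets fall. Naive arrays also held RNA of other cell types. The summed intensity of 6 NK cell markers was 1336 to 3482 in BATF-/- naive arrays and 1009 to 1100 in wild-type naive arrays. It was 158 to 193 in BATF-/- day 3 arrays and 150 to 179 in wild-type day 3 arrays. In every naive array most of this sum came from Tyrobp and Fcer1g. The sum of 3482 was that of BATF-/- naive replicate 1, where they stood at 10.95 and 10.18. In that array Klra8 (5.67) and Klre1 (7.16) were the lowest of their group, while Ncr1 (7.13) was the highest. All 12 GTPase probe sets stood well above the background, at or above the 75.4th percentile of probe sets in every group.

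Promoter sequences from RefSeq (GRCm38.p6) were searched for 6 of the 8 genes, and those of Iigp1 and Gbp6 were not. All 6 that were searched are shown. They share a sequence feature, described below. Such a feature is likely from the start in genes picked as interferon-induced, so it is no separate support. Each line gives the 125 bases before the annotated start of transcription, 5′ to 3′ on the gene's strand. Capitals mark the core of the interferon-stimulated response element (ISRE, searched on both strands as GAAA, 2 bases of any kind and GAAA again), where Irf factors bind, the gamma-activated site (GAS, TTCNNNGAA) and the AP-1 site (TGANTCA).
Igtp, chr11:58199431-58199555, + strand: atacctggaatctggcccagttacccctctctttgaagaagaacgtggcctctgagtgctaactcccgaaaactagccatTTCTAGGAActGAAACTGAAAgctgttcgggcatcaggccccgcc
Irgm2, chr11:58214852-58214976, + strand: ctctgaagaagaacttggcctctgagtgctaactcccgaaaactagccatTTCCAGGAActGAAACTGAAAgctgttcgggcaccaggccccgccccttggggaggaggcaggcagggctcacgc
Irgm1, chr11:48871421-48871545, - strand: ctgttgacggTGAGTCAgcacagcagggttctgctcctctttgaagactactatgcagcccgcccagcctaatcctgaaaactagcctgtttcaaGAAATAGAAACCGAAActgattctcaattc
Gbp2, chr3:142620538-142620662, + strand: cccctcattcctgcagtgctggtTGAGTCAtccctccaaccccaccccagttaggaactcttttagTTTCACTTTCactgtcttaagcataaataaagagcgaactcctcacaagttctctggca
Gbp3, chr3:142559919-142560043, + strand: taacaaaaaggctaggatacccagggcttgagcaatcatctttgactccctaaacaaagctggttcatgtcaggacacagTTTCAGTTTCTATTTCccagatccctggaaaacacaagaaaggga
Gbp7, chr3:142530211-142530335, + strand: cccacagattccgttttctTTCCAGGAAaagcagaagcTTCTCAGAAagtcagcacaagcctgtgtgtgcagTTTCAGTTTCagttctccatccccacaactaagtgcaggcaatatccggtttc

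An ISRE core was found in all 6 genes, between 64 and 15 bases before the start, whereas 3.44% of all 32851 promoter windows of the same length (250 bases before to 50 after the start) hold one. In Gbp3 and Irgm1 there were 2 cores that overlap each other. A second, downstream start of Gbp3 held none of these motifs. Igtp, Irgm2 and Gbp7 also held GAS motifs, which occur in 8.3% of all windows. In Igtp and Irgm2, which neighbour each other in the genome, the GAS motif lies 2 bases before the ISRE core. Long parts of their printed stretches are near copies of each other, so that they do not count as 2 separate cases. Gbp2 and Irgm1 each held an AP-1 motif (7.81% of all windows), at bases -102 to -96 and -115 to -109. The composite motifs of AP-1 and Irf factors, searched on both strands as GAAA directly before the AP-1 letters, and as TTTC, 4 bases of any kind and the AP-1 letters, were in none of the 6 genes and in 0.125% and 0.119% of all windows. These are matches of letters, not measured binding.

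Which of these GTPases differed without BATF before stimulation was asked in the naive arrays. Naive BATF-/- cells had more RNA of Iigp1 and Igtp by the test across all probe sets, and all 12 probe sets had a positive difference. Iigp1, the effector IRG, had by far the largest one. The 12 differences had a median of 0.46 log2 units, against -0.01 over all probe sets tested.

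The probe set of Iigp1 with the higher signal (1419043_a_at) had log2 intensities of 10.73, 10.27 and 9.93 in BATF-/- naive arrays, against 8.35 and 8.60 in wild-type naive arrays. The lowest BATF-/- array lay more than a full log2 unit above the highest wild-type array. The difference was 1.83 ± 0.26, or 3.56-fold (SE, n = 3 and 2, limma, adjusted p = 0.00588). The second Iigp1 probe set (1419042_at) gave 9.54, 8.95 and 8.66 in BATF-/- naive arrays and 7.32 and 7.57 in wild-type naive arrays, a difference of 1.60 ± 0.27 (limma, adjusted p = 0.0151). Both probe sets gave the same order of the 5 naive arrays.

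Igtp, a regulatory IRG, had 12.30, 12.15 and 12.01 in BATF-/- naive arrays and 11.51 and 11.62 in wild-type naive arrays. Its groups did not overlap, and the difference was 0.59 ± 0.11 (limma, adjusted p = 0.0229). Irgm2, another regulatory IRG, had 9.95, 9.57 and 9.53 in BATF-/- naive arrays and 8.99 and 9.23 in wild-type naive arrays. Gbp3 had 9.89, 9.45 and 9.43 in BATF-/- naive arrays and 8.80 and 9.19 in wild-type naive arrays. These differences of 0.57 ± 0.15 and 0.60 ± 0.16 were close in size to that of Igtp but did not pass (limma, adjusted p = 0.118 and 0.107). Gbp2 had 11.43, 11.17 and 10.93 in BATF-/- naive arrays and 10.53 and 10.90 in wild-type naive arrays by its brighter probe set (1435906_x_at), with a difference of 0.47 ± 0.15 (limma, adjusted p = 0.193). Its groups did not overlap, by a narrow margin. The remaining genes differed least, with 0.29 and 0.31 for the 2 probe sets of Gbp6, 0.13 and 0.14 for those of Gbp7, and 0.21 for Irgm1, and none of them passed.

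**Figure D1:**
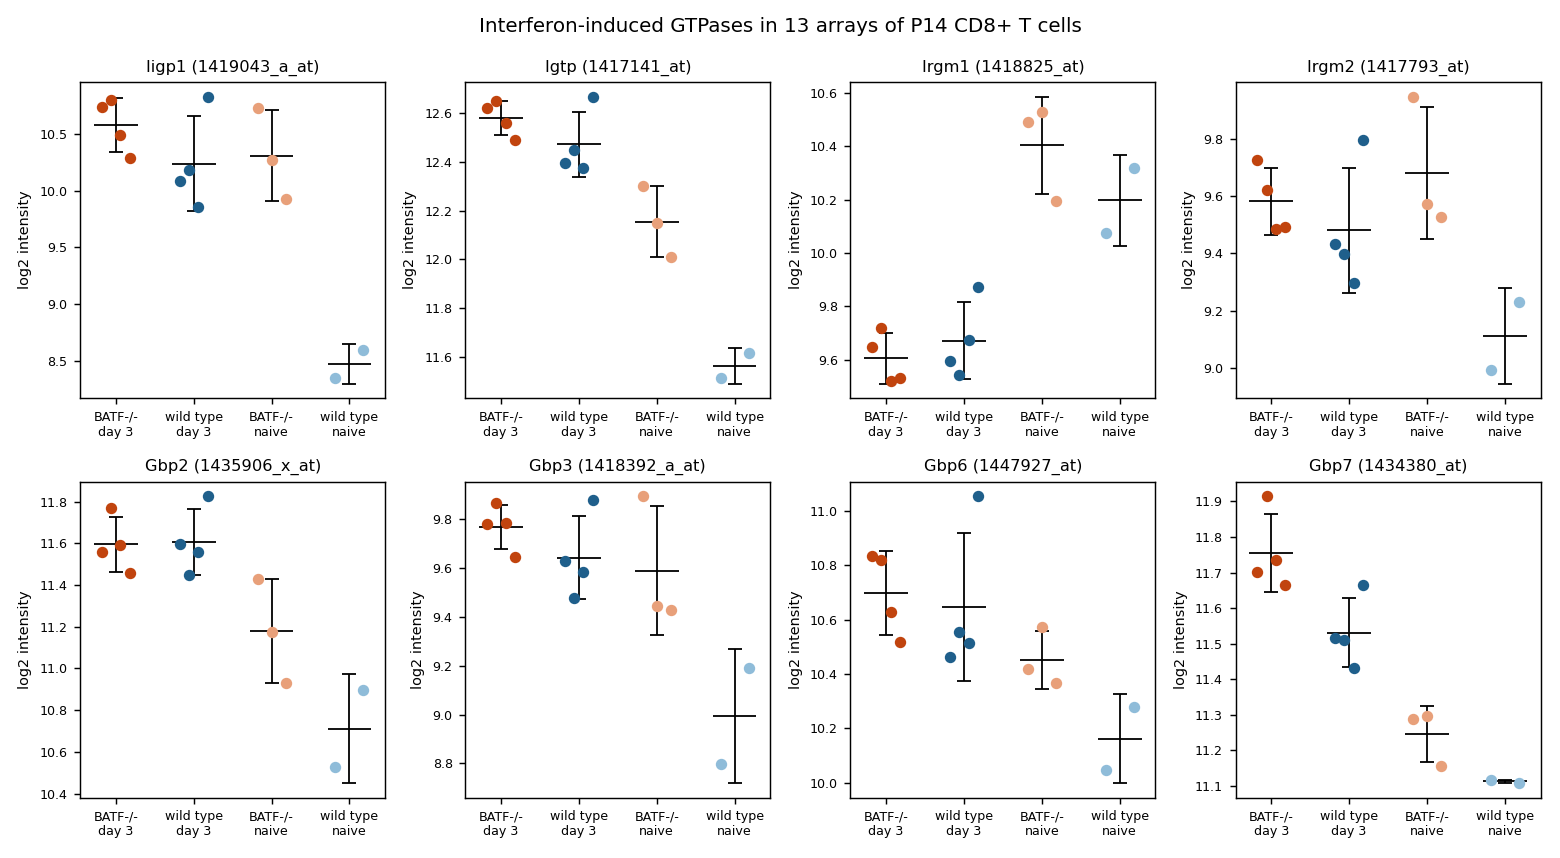
Log2 intensity (vertical axes) of the brightest probe set of each of the 8 GTPase genes in all 13 arrays, by group. Points are arrays, the long line is the group mean and the bars are 1 SD (n = 4, 4, 3 and 2 from left to right). For 7 of the 8 genes the wild-type naive arrays are the lowest group, and for Irgm1 both day 3 groups lie below both naive groups.

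In all, 3 of the 12 probe sets rose and none fell. Among all probe sets, 0.464% were called higher in this comparison. For 10 of the 12, every BATF-/- naive array exceeded both wild-type naive arrays, which was true of 10.9% of all probe sets. The exceptions were Irgm1 and the probe set 1425156_at of Gbp7. The calls depend on the wild-type naive arrays and on the spread shared with the day 3 arrays. With the 5 naive arrays alone none of the 12 passed (Iigp1, adjusted p = 0.351), although in the fit of all arrays 8 had an unadjusted p under 0.05, as did 13.6% of all probe sets. Without wild-type naive replicate 1 none passed (Iigp1, 1.71 ± 0.34, adjusted p = 0.0539), and without wild-type naive replicate 2, 1 did; the spread of a lone array is then taken from the other groups.

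Markers of other cells moved with the genotype in the same arrays. Those that passed did so in the fit of all arrays, as no probe set was called higher with the naive arrays alone. The summed intensity of 9 B cell markers was 2543 to 4266 in BATF-/- naive arrays and 1485 to 2328 in wild-type naive arrays. Of these 9, 3 rose, the inhibitory receptor gene Cd22 (1.29), the complement receptor gene Cr2 (0.90) and the transcription factor gene Ebf1 (0.68), and Ebf1 and Fcer2a were near the background in both groups and Cr2 in wild type. The markers named here were chosen after their values were seen. Of 6 NK cell markers 2 rose, the receptors Klra8 (1.53) and Klre1 (1.37), with Klrc2 near the background in both groups and Klra8 in wild type, so that the size of the Klra8 difference is uncertain. Of 5 plasma cell markers 2 rose, Tnfrsf17 (1.2, with wild type near the background) and Xbp1 (0.82), and their sum was 11482 to 14901 in BATF-/- and 8342 to 9457 in wild-type naive arrays. The 7 neutrophil markers, none of which passed, summed to 9309 in BATF-/- naive replicate 1 and to 311 and 954 in replicates 2 and 3, against 549 to 658 in wild type. None of 8 dendritic cell and 7 monocyte and macrophage markers passed, but both sums were higher without overlap. For dendritic cells they were 2750 to 4318 in BATF-/- and 2470 to 2548 in wild-type naive arrays. For monocytes and macrophages they were 6267 to 9419 in BATF-/- and 5637 to 6097 in wild-type naive arrays. The dendritic cell sum came mostly from H2-Ab1 and Cd74, and the monocyte and macrophage sum from Ctss. By the mean log2 level of the same markers the genotypes overlapped. This mean was 6.73 to 7.10 in BATF-/- and 6.70 to 6.79 in wild-type naive arrays for dendritic cells. For monocytes and macrophages it was 6.88 to 8.05 in BATF-/- and 7.02 to 7.07 in wild-type naive arrays. All 7 CD8+ T cell markers had a negative difference, and none passed. Their sum was 26112 in BATF-/- naive replicate 1, the lowest naive array. It was 36595 and 35602 in replicates 2 and 3, within the wild-type naive range of 34124 to 37381. BATF-/- naive replicate 1 was also the highest of its group in 8 of the 12 GTPase probe sets, compared with 33.9% of all probe sets. Without it, the Iigp1 difference was 1.62 (limma, adjusted p = 0.0106) and that of Igtp 0.52 (limma, adjusted p = 0.0416). B cell and dendritic cell sums were highest in replicate 3. That array was the highest of its group in 0 of the 12 GTPase probe sets, compared with 28.9% of all probe sets. It was the lowest of its group in all 12, but the share of all probe sets lowest there was not determined. The part of other cells in the differences was not tested. In RNA of whole samples, more cells of a type and more RNA per cell cannot be told apart.

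The comparison of the genotypes after 3 days of stimulation asks whether the GTPases differ between effector cells. None of the 12 probe sets passed, and 2, both of Gbp7, had an unadjusted p under 0.05, as did 10.7% of all probe sets. The median difference was 0.10, against 0.01 over all probe sets, of which 0.331% were called higher. The Iigp1 difference of the naive cells was not seen at this size: the 95% confidence interval at day 3 ran from -0.10 to 0.78 for the brighter Iigp1 probe set, against 1.27 to 2.40 in naive cells.

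Iigp1 had 10.74, 10.80, 10.49 and 10.29 in BATF-/- day 3 arrays, against 10.09, 10.18, 9.86 and 10.83 in wild-type day 3 arrays. The wild-type array with 10.83 exceeded every BATF-/- array and the other 3 lay below them all. Gbp7 had 11.70, 11.91, 11.73 and 11.67 in BATF-/- day 3 arrays and 11.52, 11.51, 11.43 and 11.66 in wild-type day 3 arrays (1434380_at). These groups did not overlap, but the lowest BATF-/- and the highest wild-type value met within rounding, and the difference of 0.22 ± 0.07 did not pass (limma, adjusted p = 0.238). Gbp7 was the only one of the 12 probe sets with BATF-/- arrays all above wild type, where 5.3% of all probe sets had such an order. For Igtp the interval of the difference was -0.07 to 0.28, for Irgm2 -0.16 to 0.36, for Gbp3 -0.13 to 0.39 and for Irgm1 -0.28 to 0.14. Thus differences of 0.5 log2 units or more lie outside the intervals of 10 of the 12 probe sets, and not of the 2 for Iigp1.

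Wild-type day 3 replicate 4 was the highest of the 4 wild-type day 3 arrays in all 12 GTPase probe sets, compared with 29.5% of all probe sets. Without it, the Iigp1 difference at day 3 was 0.54 rather than 0.34 (limma, adjusted p = 0.253), and again none of the 12 passed. Irf1, which encodes an activator of the GTPase genes, was likewise highest in that array, at 11.16 against 10.69 to 10.84 in the other 3 wild-type day 3 arrays. The order was not particular to the GTPases. Other interferon-induced genes were highest there too, such as Ifi47 (11.73 against 11.36 to 11.49) and Ifit1 (5.46 against 4.54 to 4.91). Not all were, as Isg20 had 7.981 there and 8.025 in wild-type day 3 replicate 3. The interferon gamma gene Ifng (6.84) and the receptor chain gene Ifngr2 (7.07) were the lowest of the 4 there. A link of these genes to the GTPase levels of that array was not tested. At day 3 the B cell marker sums were 381 to 398 in BATF-/- arrays and 346 to 407 in wild-type arrays, and those of plasma cells 3926 to 4467 in BATF-/- and 3537 to 3984 in wild-type arrays. Monocyte and macrophage sums were higher (3444 to 3736 in BATF-/- and 3095 to 3412 in wild-type arrays) and dendritic cell sums lower (811 to 906 in BATF-/- and 931 to 1072 in wild-type arrays), both without overlap. Of these lists 1 marker passed at day 3, the dendritic cell gene Batf3, which was lower (-1.12, limma, adjusted p = 9.22e-05). Batf3 is counted in the dendritic cell sum. The plasma cell sum came mostly from Xbp1 (12.02 in BATF-/- and 11.83 in wild type), with Jchain and Tnfrsf17 near the background. The monocyte and macrophage sum came mostly from Ctss (11.69 and 11.56 in the same order), with Cd14, Adgre1 and Lyz2 near the background. These day 3 sums therefore do not show that such cells were present. The part of other cells at day 3 was not tested.

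**Figure D2:**
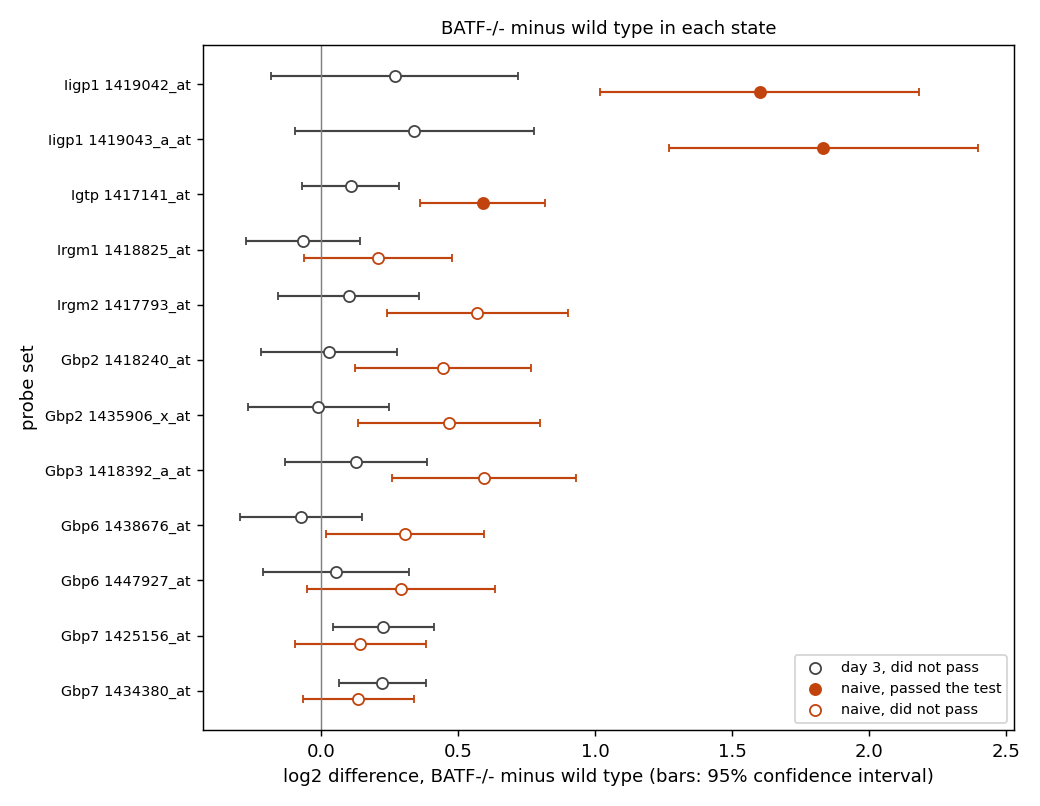
Log2 difference between BATF-/- and wild-type cells (horizontal axis) for the 12 GTPase probe sets (vertical axis), at day 3 (grey) and in naive cells (orange). Bars are 95% confidence intervals and filled points passed the test. The 2 Iigp1 probe sets and Igtp are filled in naive cells, and all day 3 points are open.

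By the contrast of day 3 with naive cells, called stimulation here, most of these GTPases were higher in wild-type day 3 cells. It compares day 0 cells with cells cultured for 3 days with antibodies and IL-2, and no group was cultured without stimulation. Naive arrays also held more RNA of other cells, such as NK and B cells, than day 3 arrays. The part of culture and of other cells in these differences, here and below, was not tested. Of the 12 probe sets, 10 rose, 1 fell and 1 did not pass, with a median difference of 0.75 against 0.03 over all probe sets. Among all probe sets 17.9% were called higher and 20.8% lower, so that a change in either direction was common. Iigp1 rose 3.39-fold (1.76 ± 0.25, n = 4 and 2, limma, adjusted p = 5.38e-05), to a mean of 10.24 ± 0.42 in wild-type day 3 arrays, against 8.48 ± 0.18 in wild-type naive arrays (SD). The mean in BATF-/- naive arrays was 10.31 ± 0.40 (SD, n = 3).

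Igtp had 12.40, 12.45, 12.37 and 12.67 in wild-type day 3 arrays, against 11.51 and 11.62 in wild-type naive arrays, a rise of 0.90 ± 0.10 (limma, adjusted p = 5.88e-06). Gbp2 rose by 0.89 ± 0.15 and 1.04 ± 0.14 by its 2 probe sets. With 11.59, 11.45, 11.56 and 11.82 in wild-type day 3 arrays, against 10.53 and 10.90 in wild-type naive arrays, its groups were well apart. Gbp3 rose by 0.65 ± 0.15, Gbp7 by 0.42 ± 0.09 and 0.44 ± 0.10, and Gbp6 by 0.48 ± 0.15 and 0.86 ± 0.13. Irgm2 was at 0.37 ± 0.15 without passing (limma, adjusted p = 0.062), but passed under 4 alternatives: without the dim probe sets (adjusted p = 0.0458), with an intensity trend (adjusted p = 0.0427), without BATF-/- naive replicate 1 (adjusted p = 0.0317) and without wild-type day 3 replicate 3 (adjusted p = 0.0413). The calls of Gbp3 and of the Gbp6 probe set 1447927_at were lost without wild-type naive replicate 1 (limma, adjusted p = 0.0699 and 0.182).

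Irgm1, the regulatory IRG that is also tied to autophagy and mitochondria, went the other way. It had 9.60, 9.54, 9.67 and 9.87 in wild-type day 3 arrays, against 10.08 and 10.32 in wild-type naive arrays, and fell by 0.52 on the log2 scale (limma, adjusted p = 0.00262). No day 3 array reached a naive one. Without wild-type naive replicate 2 this call was lost (limma, adjusted p = 0.0577).

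In BATF-/- cells stimulation raised 6 of the 12 probe sets and lowered 1, and 5 did not pass, with a median of 0.34 against 0.04 over all probe sets, of which 18.5% were called higher and 19.8% lower. Those that rose were Igtp (0.42 ± 0.09, limma, adjusted p = 0.00154), both probe sets of Gbp2 (0.42 ± 0.13 and 0.62 ± 0.12), both of Gbp7 (0.51 ± 0.08 and 0.52 ± 0.09) and 1 of Gbp6 (0.47 ± 0.11). The call of the brighter Gbp2 probe set was lost without BATF-/- naive replicate 3 (limma, adjusted p = 0.112) and without BATF-/- day 3 replicate 2 (limma, adjusted p = 0.059). Irgm1 was again lower at day 3. It had 9.65, 9.72, 9.52 and 9.53 in BATF-/- day 3 arrays, against 10.49, 10.53 and 10.20 in BATF-/- naive arrays, and fell by 0.80 (limma, adjusted p = 2.65e-05). Iigp1 was at 0.27 ± 0.22 (limma, adjusted p = 0.37), Irgm2 at -0.10 ± 0.13 and Gbp3 at 0.18 ± 0.13, none of which passed. Without BATF-/- naive replicate 1 Gbp3 passed, at 0.33 (limma, adjusted p = 0.0446). With array quality weights Gbp3 (0.30, limma, adjusted p = 0.0349) and the dimmer Iigp1 probe set (0.54, limma, adjusted p = 0.0383) passed, which makes 9 of 12. The difference of the brighter Iigp1 probe set was 0.08 without BATF-/- naive replicate 3 and 0.48 without BATF-/- naive replicate 1, and passed in neither case (limma, adjusted p = 0.833 and 0.114).

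**Figure D3:**
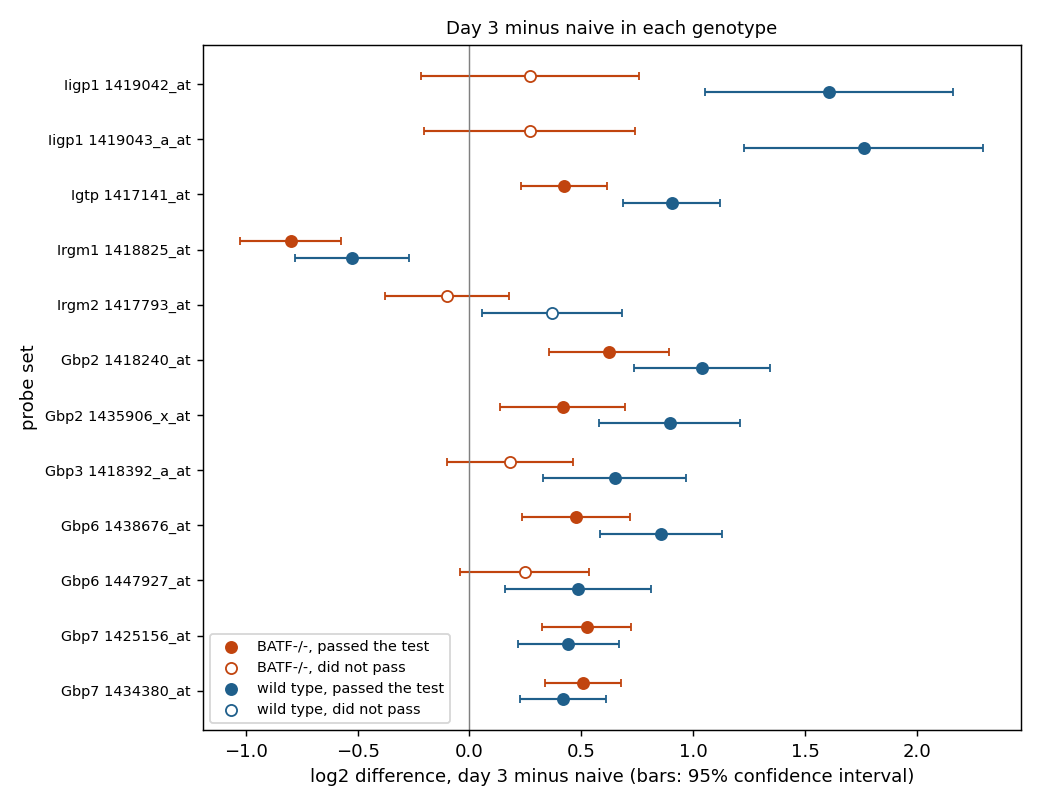
Log2 difference between day 3 and naive cells (horizontal axis) for the 12 GTPase probe sets (vertical axis), in BATF-/- (orange) and wild-type cells (blue). Bars are 95% confidence intervals and filled points passed the test. Irgm1 lies left of 0 in both genotypes, and the 2 Iigp1 probe sets lie at 0.27 in BATF-/- cells and at 1.61 and 1.76 in wild-type cells.

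Whether the response to stimulation differs by genotype was tested as an interaction, which draws on the same arrays as the comparisons above. None of the 12 probe sets passed, and 8 had an unadjusted p under 0.05, as did 11% of all probe sets. For 10 of the 12 the response was smaller, or for Irgm1 the fall larger, in BATF-/- cells. The median over all 12 was -0.44, against 0.02 over all probe sets, of which 0.218% were called lower. Iigp1 came closest, with -1.49 ± 0.33 (unadjusted p = 0.000545 by limma, adjusted p = 0.0874). Igtp was at -0.48 ± 0.13 (limma, adjusted p = 0.185). The 2 probe sets of Gbp7 were the exceptions, at 0.08 and 0.09. A different response of these genes without BATF was therefore not shown by this test.

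By the brightest probe set of each gene, Iigp1 and Igtp were the 2 genes whose group means span at least 1 log2 unit. Over the 13 arrays, the genes with the most similar centred profiles to Iigp1 among 12713 candidates were Fgl2, a secreted or membrane-bound fibrinogen-like protein (root mean square difference of 0.40 log2 units), Xbp1, a transcription factor of the unfolded protein response (0.43), and Myo5a, a motor protein (0.44). Igtp itself stood at 0.45 from Iigp1. Nearest to Igtp were Xdh, the enzyme that makes uric acid (0.09), Il18r1, a chain of the interleukin 18 receptor (0.09), and Cd200r1, an inhibitory receptor (0.12). Its nearest neighbour among the GTPases was Gbp2 (0.11). These are similarities over arrays that share the contrast of naive and day 3 cells, and carry no test.

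The other members of the families, as far as probe sets name them alone, did not follow 1 pattern. Of 5 other IRG genes, 1 rose and 3 fell with stimulation in each genotype, and none passed between the genotypes, with 3 at an unadjusted p under 0.05 in naive cells and 0 at day 3. Gm4951, annotated as a gene model only, rose by 2.05 ± 0.23 in BATF-/- and by 2.97 ± 0.26 in wild-type cells. It had 5.99, 5.48 and 5.09 in BATF-/- naive arrays and 4.02 and 4.52 in wild-type naive arrays, a difference of 1.25 that did not pass (limma, adjusted p = 0.0568) and whose wild-type mean is near the background. Ifi47 (Irgd) fell, with differences of -0.83 in BATF-/- and -0.90 in wild-type cells. Gbp8 rose by 0.52 in BATF-/- and 0.50 in wild-type cells, while Gbp2b was near the background throughout. The dynamin-like antiviral GTPases Mx1 and Mx2 both fell. The Mx1 difference was -1.72 in BATF-/- and -2.32 in wild-type cells.

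The upstream genes of the pathway were measured on the same arrays. Ifng, the gene of interferon gamma, had 6.44, 6.66 and 6.54 in BATF-/- naive arrays and 5.70 and 5.90 in wild-type naive arrays. It was higher by 0.75 ± 0.10 (limma, adjusted p = 0.00341) and was the only one of 5 measured interferon genes to pass there. Of the others, Ifnb1, Ifna2 and Ifna4 were near the background in both naive groups. With the naive arrays alone no probe set was called higher, that of Ifng included. NK cell marker sums were also higher in BATF-/- naive arrays. The part of other cells in the Ifng difference was not tested. At day 3 Ifng was at 7.18, 7.35, 7.32 and 7.14 in BATF-/- arrays and 6.91, 7.0, 6.93 and 6.84 in wild-type arrays, a difference of 0.33 that did not pass (limma, adjusted p = 0.074). None of the 6 interferon receptor genes passed between the genotypes, with 0 at an unadjusted p under 0.05 in naive cells and 2 at day 3. With stimulation 4 of the 6 rose and 1 fell in each genotype. The receptor chain gene Ifngr1 rose by 0.72 in BATF-/- and 0.60 in wild-type cells, while Ifngr2, the other chain of the interferon gamma receptor, fell (-0.91 in BATF-/- and -0.77 in wild-type cells).

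Of 12 Jak, Stat and Irf genes and related activators none passed between the genotypes, with 2 at an unadjusted p under 0.05 in each state. With stimulation 2 rose and 6 fell in BATF-/- cells, and 2 rose and 5 fell in wild-type cells. Irf1 fell (-0.54 in BATF-/- and -0.38 in wild-type cells), as did Irf9, the DNA-binding part of the type I interferon complex (-0.98 in BATF-/- and -0.96 in wild-type cells). Irf7, which amplifies type I interferon, fell more (-2.02 in BATF-/- and -2.56 in wild-type cells). Irf8 (0.95 in BATF-/- and 1.22 in wild-type cells) and Stat2 (0.67 and 0.86 in the same order) rose. Of 10 genes that restrain the pathway, 3 rose and 5 fell in each genotype. Socs1, which blocks Jak kinases, rose by 0.83 in BATF-/- and 0.78 in wild-type cells, and Socs3 fell (-1.72 in BATF-/- and -1.81 in wild-type cells).

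Other interferon targets changed in both directions on stimulation. Of 35 type I interferon targets, 4 rose and 25 fell in BATF-/- cells, and 3 rose and 26 fell in wild-type cells. Their median difference was -0.79 in BATF-/- and -0.99 in wild-type cells, where the 8 GTPase genes had medians of 0.26 and 0.57. Ifit1, an RNA-binding antiviral protein, fell (-3.34 in BATF-/- and -4.23 in wild-type cells), and so did Slfn5 (-4.06 in BATF-/- and -4.47 in wild-type cells, with day 3 levels near the background, so that the fall may be understated). Of 23 interferon gamma targets outside the families, 5 rose and 9 fell in BATF-/- cells, and 7 rose and 6 fell in wild-type cells. Those that rose include Tap1, the peptide transporter (0.66 in BATF-/- and 0.98 in wild-type cells), and Psmb9, an immunoproteasome subunit (0.58 in BATF-/- and 0.90 in wild-type cells). The chemokine gene Cxcl9 fell (-3.20 in BATF-/- and -2.71 in wild-type cells), to levels near the background.

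**Figure D4:**
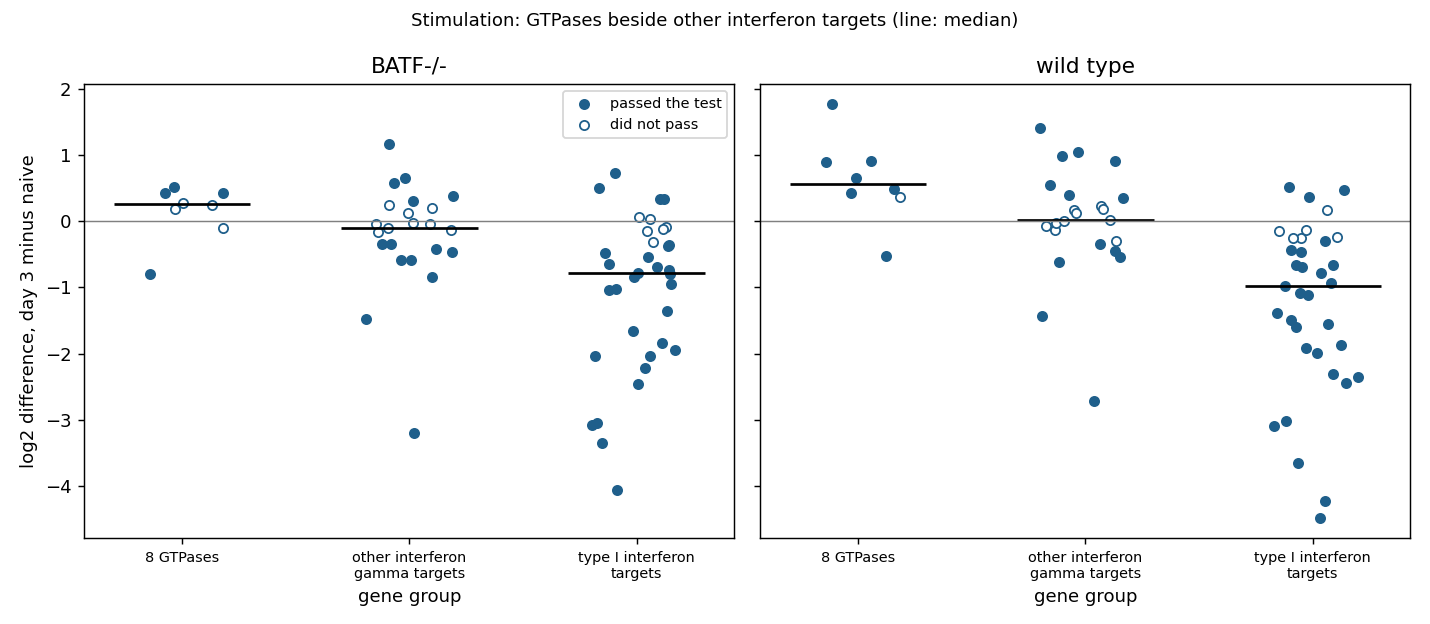
Log2 difference between day 3 and naive cells (vertical axes) in BATF-/- (left) and wild-type cells (right), with 1 point for each of the 8 GTPase genes, 23 other interferon gamma targets and 35 type I interferon targets. Filled points passed the test and lines are medians. The medians of the GTPases (0.26 in BATF-/- and 0.57 in wild-type cells) lie above 0, and those of the type I targets (-0.79 and -0.99) below it.

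Between the genotypes, 3 of the 23 interferon gamma targets were higher in naive BATF-/- cells, as were 0.464% of all probe sets. Casp1, the inflammasome protease, had 8.70, 8.16 and 8.19 in BATF-/- naive arrays and 7.05 and 7.30 in wild-type naive arrays, a difference of 1.18 ± 0.15 (limma, adjusted p = 0.00334). Casp4 (caspase-11), which senses lipopolysaccharide in the cytosol together with GBPs, was higher by 0.85 ± 0.14 (limma, adjusted p = 0.0151), and Cd274, the ligand PD-L1, by 0.37 ± 0.08 (limma, adjusted p = 0.0478). With the naive arrays alone no probe set was called higher, those of these genes included. For Casp1 and Casp4 the interaction passed, at -1.52 ± 0.19 and -1.14 ± 0.18 (limma, adjusted p = 0.00538 and 0.0178). Both fell with stimulation in BATF-/- cells (-0.47 and -0.59), and rose in wild-type cells by 1.04 and 0.55. Of all probe sets 0.218% were called lower for the interaction. Casp1 (8.70) and Casp4 (7.46) were highest of their group in BATF-/- naive replicate 1. That array also had the highest sums of neutrophil (9309) and of monocyte and macrophage markers (9419). The part of other cells in these differences was not tested. None of the 35 type I targets passed in naive cells, with 5 at an unadjusted p under 0.05 and a median of -0.14. At day 3 the exonuclease gene Isg20 was higher (0.67, limma, adjusted p = 0.00693), as 1 of the 35. Of 12 genes of the Atg8 conjugation machinery, which helps to target IRGs and GBPs to vacuoles, none passed between the genotypes, with 1 at an unadjusted p under 0.05 in each state. Gabarapl1 rose with stimulation by 1.26 in BATF-/- and 1.64 in wild-type cells.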

How the data were processed

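RNA of P14 CD8+ T cells was measured on 13 arrays in 4 groups. The deposited intensity values were made with RMA, per the submitters' processing notes, which give no version. They are on a linear scale (medians 31.5 to 32.5, highest value 27465) and were converted to log2 here without further normalisation. Of 45101 probe sets, 64 controls were left out. Gene names came from the platform annotation: 34958 probe sets have 1 gene, 932 several and 9211 none. The 4 group means were fitted to 45037 probe sets with limma 3.58.1 in R 4.3.3 (lmFit, eBayes), with two-sided tests and Benjamini-Hochberg adjustment over all of them. An adjusted p below 0.05 counts as passed, and "rose" and "fell" refer to this. The brightest probe set of a gene by its mean over all arrays stood for genes of the lists. Precision is limited by how few arrays each group has. The script was tested on simulated data.

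All probe sets of the 8 symbols are described. Of 10 pathway lists (112 of 141 genes measured), up to 4 genes that passed in a direction could be named for each comparison, and genes of the interferon axis whether or not they passed. The members and lists were chosen with earlier results of these data known. Same-numbered arrays did not deviate together (correlations between -0.20 and 0.05), so the replicate numbers were not taken as pairs. Probe sets of related GTPases can share signal, as the suffixes _a_at and _x_at mark for some, and this was not tested. Names that no single-gene probe set carries were not analysed here.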

Additional observations from a re-analysis of the deposited data

Results flagged for a closer look

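In 1 of 24 sets of 4 day 3 arrays (12 GTPase probe sets in each genotype), 1 array stood far from the other 3. This was the Gbp6 probe set 1447927_at, with 11.05 in wild-type day 3 replicate 4 and 10.56 in the next highest wild-type day 3 array. The gap is 0.845 of the group's range, above Dixon's 95% critical value for 4 samples. Chance alone marks about 1 set in 20. The same array was the highest of its group for all 12 GTPase probe sets, as given above.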

How the results depend on the processing

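Each comparison was refitted after a further quantile normalisation, after median centring, without the dim 40% of probe sets, with 1 probe set per gene, with eBayes using a trend or made robust, with weights for array quality, with a replicate block, on only the 2 groups compared (not possible for the interaction) and without each array in turn. Of the 12 GTPase probe sets, 3 passed in naive cells, 7 with stimulation in BATF-/- cells, 11 with stimulation in wild type, and 0 at day 3 and for the interaction. The count became 1 at day 3 with array quality weights (Gbp7, 0.26, adjusted p = 0.04996), 0 in naive cells with the 2 groups alone, and 4 in BATF-/- and 7 in wild-type cells with 1 probe set for each of the 8 genes. Leaving out an array gave 0 at day 3, 0 to 4 in naive cells, 6 to 8 in BATF-/- cells, 9 to 12 in wild type and 0 for the interaction.

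Over all probe sets, 348 passed at day 3, 333 in naive cells and 138 for the interaction. At day 3 the number was 528 without the dim probe sets, 534 with the trend, 1659 with array weights, 163 with the replicate block and 894 with the day 3 arrays alone. In naive cells it was 662 with array weights, 142 with the block and 2 with the naive arrays alone. For the interaction it was 214 with the trend, 510 with array weights and 47 with the block. With 1 probe set per gene 196 passed in naive cells, 8545 with stimulation in BATF-/- cells and 8258 in wild type, where fewer features are tested. Leaving out an array gave 127 to 770 at day 3, 169 to 1623 in naive cells and 69 to 531 for the interaction. The highest of these came without BATF-/- naive replicate 1 at day 3, and without BATF-/- naive replicate 2 in naive cells and for the interaction. The cause of these shifts was not tested.

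The direction of single GTPase probe sets reversed only where the difference lay close to 0 and did not pass. With array weights the day 3 difference of Gbp2 1435906_x_at was 0.034. Leaving out single arrays turned the sign at day 3 of Gbp2 1418240_at (-0.032 to 0.12), Gbp2 1435906_x_at (-0.070 to 0.062), Gbp6 1447927_at (-0.0074 to 0.19), Gbp6 1438676_at (-0.14 to 0.015) and Irgm1 (-0.11 to 0.00038), and of Irgm2 with stimulation in BATF-/- cells (-0.18 to 0.032). With the replicate block Igtp did not pass in naive cells (0.63, adjusted p = 0.0582), nor 1435906_x_at of Gbp2 with stimulation in BATF-/- cells (0.40, adjusted p = 0.0511). The block changed no other GTPase call.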
